A study of Homo sapiens with 2 samples.

Results

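The genes described here encode the TGF-beta receptors TGFBR1, TGFBR2 and TGFBR3 and the SMAD proteins SMAD1 to SMAD7. They were chosen by symbol, and all 10 had a single row among the 59690 rows kept from the deposited table of 60649. The table compares RNA from an RNA immunoprecipitation (RIP), in which an antibody pulls down a protein together with RNA attached to it or close by, with RNA recovered when rabbit IgG took the antibody's place (mock RIP). According to the design text, the antibody of the first library recognised MT1-MMP, a matrix metalloproteinase anchored in the cell membrane and encoded by MMP14; the title of that sample names MMP1, another protease. Both libraries came from cells labelled wild type and treated with the G11 (P4G11) antibody to beta-1 integrin in medium without serum for 16 h, so the treatment is shared by both and is not compared. A further antibody, E7-s, is named in the treatment protocol with no stated role. The cells were MDA-231, an established human line of triple-negative, mesenchymal breast cancer, although the tag of the IgG sample reads MDA-232. Each group is 1 library of this single line, so the values below have no replicate check, no test across samples can be made, and every interval covers counting error only.

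TGF-beta is a secreted ligand that binds the type II receptor TGFBR2, which then phosphorylates the type I receptor TGFBR1. The co-receptor TGFBR3, or betaglycan, presents ligand to them, and its ectodomain is one of the known substrates that MT1-MMP sheds from cells. Active TGFBR1 phosphorylates SMAD2 and SMAD3, while receptors for bone morphogenetic proteins (BMPs) phosphorylate SMAD1 and SMAD5; SMAD4 joins either kind, the complex enters the nucleus and regulates transcription, and SMAD6 and SMAD7 inhibit the pathway. In breast cancer cells of mesenchymal type the pathway is known for promoting invasion and metastasis.

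The rows summed to 31636000 counts in the MT1-MMP library and to 13003668 in the IgG library. Rows of the ribosomal DNA on chromosome 21 took 10.2% of the first and 92.6% of the second, so the scale chosen sets the level of every other gene. Ratios of MT1-MMP to IgG counts were scaled by TMM (trimmed mean of M-values), under which 35.5 MT1-MMP counts to 1 IgG count make a scaled ratio of 1, a log2 ratio of 0. On this scale the median of 14328 tested protein-coding genes (at least 20 counts over both libraries) was a log2 ratio of 0.42, with quartiles of -0.91 and 1.37. By total counts (CPM, the share of a library's total) each log2 ratio is 3.87 higher. A gene was called on the MT1-MMP side where its whole exact 95% interval lay above a scaled ratio of 2, and on the IgG side where it lay below 0.5. The mRNA of MMP14 itself, with 367 counts against 134, was called on the IgG side, although by total counts its log2 ratio was 0.17. All 8 markers listed for MDA-231 cells were above 0 in the MT1-MMP library and 7 of 8 in the IgG library, where SPARC was at 0. Every marker listed for the other cell types was above 0 in the MT1-MMP library too. The MDA-231 markers summed to 1266 and 134 CPM. In the MT1-MMP library most of this was CD44, with 797 CPM, while SPARC had 3 counts and S100A4 41. The 8 luminal breast cancer markers summed to 62.8 and 15.5 CPM, the 5 immune markers to 2.53 and 2.08 CPM and the 3 hepatocyte markers to 0.348 and 0 CPM. The 4 endothelial markers summed to 111 and 2.08 CPM, most of it PECAM1 with 3414 MT1-MMP counts. A library of input RNA was not analysed here, so how much of an RNA the cells held and how much of it came down with the antibody cannot be told apart.

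All 10 genes lay above a scaled ratio of 1 (SMAD5 at a log2 ratio of -0.05 with TMM over rows of at least 20 counts), and 4 of them were called on the MT1-MMP side: the receptors TGFBR2 and TGFBR3 and the transcription factors SMAD2 and SMAD3. None was called on the IgG side. Over all tested protein-coding genes, 13.0% were called on the MT1-MMP side and 13.2% on the IgG side. On this scale a call on the MT1-MMP side needs at least 264 MT1-MMP counts, even with 0 IgG counts. TGFBR1, with 259, stood at percentile 41.5 of tested protein-coding genes by MT1-MMP counts. The 13.0% thus includes many genes with too few counts for such a call, while the 4 called genes had 1870 or more. The median log2 ratio of the 10 genes was 1.47, with a range of 0.32 to 2.33, and 9 of 10 lay above the median protein-coding gene of 0.42. The calls of SMAD3 and TGFBR3 held under each of the 6 other scalings run. Those of SMAD2 and TGFBR2 did not, as given with their values below: with TMM over rows of at least 20 counts, SMAD3 and TGFBR3 were the 2 calls left, against 7.24% of tested protein-coding genes on the MT1-MMP side and 16.2% on the IgG side. By total counts all 10 were called on the MT1-MMP side and none on the IgG side, against 86.1% and 0.698% of tested protein-coding genes, so that count is near its background.

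**Figure D1:**
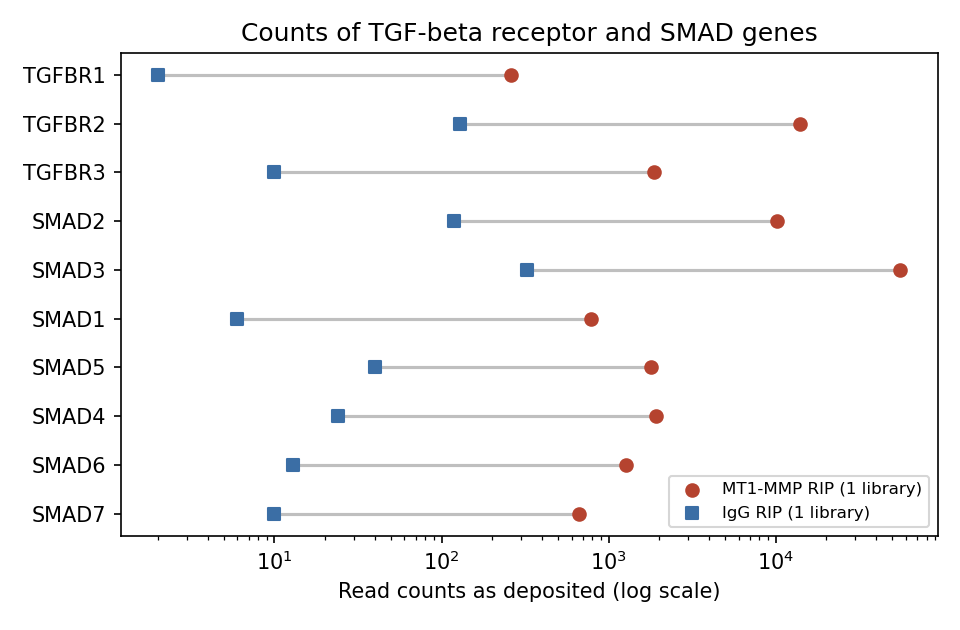
Read counts as deposited (horizontal axis, log scale) of the 10 genes in the MT1-MMP RIP (circles) and the IgG RIP (squares), 1 library each. SMAD3 is highest in both libraries, with 55779 and 326 counts, and TGFBR1 lowest in both, with 259 and 2.

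TGFBR2, the type II receptor that binds the ligand, had 14044 MT1-MMP counts and 129 IgG counts. Its log2 ratio was 1.61 (95% interval 1.37 to 1.88). It lies on chromosome 3 at 30606356 to 30694142 (GRCh38), a span of 87.8 kb with introns included. With TMM factors computed over rows of at least 20 counts, a log2 shift of -0.37, it was no longer called.

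TGFBR3, the co-receptor betaglycan, had 1870 MT1-MMP counts and 10 IgG counts. Its log2 ratio of 2.33 (1.51 to 3.46) was the highest of the 10. At a scaled ratio of 1 its MT1-MMP count would have gone with 52.6 IgG counts. The gene has the longest span of the 10, 225.7 kb, on chromosome 1 at 91680343 to 91906002.

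TGFBR1, the type I receptor kinase, had 259 MT1-MMP counts and 2 IgG counts. Its log2 ratio was 1.55, with an interval that runs from a scaled ratio of 0.999 to one of 30.3, so at this depth the value cannot be told from a scaled ratio of 1 or from a far higher one. With no IgG count at all, 264 MT1-MMP counts would have been needed for a call, more than the gene had. It spans 50.5 kb on chromosome 9, at 99103647 to 99154192. Per kb of span TGFBR1 had 5.12 MT1-MMP counts, the lowest of the 10 genes, against 8.29 for TGFBR3 and 160.0 for TGFBR2. The receptor that binds ligand and the receptor kinase it acts on thus differed 31.2-fold in MT1-MMP counts per kb of span, while their ratios to IgG differed by 1.19-fold with an interval of 0.319 to 9.98.

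SMAD3, which TGFBR1 activates, had 55779 MT1-MMP counts and 326 IgG counts. Its log2 ratio was 2.27 (2.11 to 2.43), the narrowest interval of the 10. It ranked 7th among all protein-coding rows by MT1-MMP counts and 78th by IgG counts. SMAD3 alone held 63.0% of the 88521 MT1-MMP counts of the 10 genes (exact 95% interval 62.7 to 63.3) and 48.0% of their 679 IgG counts (44.2 to 51.8). It lies on chromosome 15 at 67065602 to 67195169, a span of 129.6 kb, and had 430.5 MT1-MMP counts per kb of span. A row that follows it in the table, RP11-342M21.2, matched no RefSeq name and held 1745 and 13 counts, 3.13% and 3.99% of those of SMAD3.

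SMAD2, the close relative of SMAD3 that TGFBR1 also activates, had 10152 MT1-MMP counts and 119 IgG counts. Its log2 ratio was 1.26 (1.003 to 1.54), just past the 2-fold limit at a log2 ratio of 1. The call was lost with DESeq2 size factors, with TMM over protein-coding rows and with TMM over rows of at least 20 counts, which move log2 ratios by -0.06, -0.19 and -0.37. SMAD2 spans 121.9 kb on chromosome 18, at 47808957 to 47930872. Inside it lies MTCO2P2, a pseudogene copy of a mitochondrial gene, at 47853230 to 47853472. That row had 27 MT1-MMP counts and 23 IgG counts, the latter equal to 19.3% of the IgG counts of SMAD2. Taken off SMAD2, on the assumption that the same reads entered both rows, they left 10125 and 96 counts and a log2 ratio of 1.56 (1.28 to 1.88).

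SMAD3 and SMAD2 differed in their ratios whatever the scale. A ratio of their MT1-MMP to IgG ratios needs no scaling between libraries, and it was 2.01 (95% interval 1.61 to 2.48). With the counts of MTCO2P2 taken off SMAD2 it was 1.62 (1.28 to 2.05), still above 1. Per kb of span SMAD3 had 5.17 times the MT1-MMP counts of SMAD2.

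SMAD4, the shared partner of the activated SMADs, had 1918 MT1-MMP counts and 24 IgG counts. Its log2 ratio was 1.14 (0.59 to 1.82), not a call. The ratio of SMAD3 exceeded that of SMAD4 by 2.14-fold (1.35 to 3.25). That of SMAD2 did so by 1.07-fold with an interval of 0.656 to 1.67, which includes 1. SMAD4 spans 54.8 kb on chromosome 18, at 51030213 to 51085042. The row before it, RP11-729L2.2, matched no RefSeq name and held 1310 and 7 counts, equal to 68.3% and 29.2% of those of SMAD4. Whether the same reads entered both rows was not tested.

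SMAD1 and SMAD5, which act for BMP receptors, stood apart from each other. SMAD1 had 780 MT1-MMP counts and 6 IgG counts, with a log2 ratio of 1.76 (0.74 to 3.32), not a call. By totals without ribosomal DNA, which move log2 ratios by 0.27, SMAD1 was called on the MT1-MMP side. SMAD5 had 1790 and 40, with a log2 ratio of 0.32 (-0.12 to 0.82), the lowest of the 10 and the only value under the protein-coding median. The ratio of SMAD1 was 2.90 times that of SMAD5, with a wide interval of 1.22 to 8.42 that rests on the 6 IgG counts of SMAD1. SMAD5 had more counts per kb of span than SMAD1 in both libraries, 35.9 against 9.95 in the MT1-MMP library and 0.802 against 0.0765 in the IgG library. SMAD1 spans 78.4 kb on chromosome 4 (145480770 to 145559176) and SMAD5 49.9 kb on chromosome 5 (136132845 to 136182733). The antisense rows SMAD1-AS2 (64 and 0 counts) and SMAD1-AS1 (18 and 1) lie over SMAD1, and SMAD5-AS1 (52 and 0) overlaps SMAD5. With these taken off, the ratio of SMAD1 was 3.21 times that of SMAD5 (1.26 to 10.5).

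The inhibitory SMADs were intermediate. SMAD6 had 1265 MT1-MMP counts and 13 IgG counts, a log2 ratio of 1.40 (0.67 to 2.37). SMAD7, which is itself induced by TGF-beta and turns the receptors over, had 664 and 10, a log2 ratio of 0.83 (0.01 to 1.97). Neither was called, and their ratios differed by 1.47-fold with an interval of 0.572 to 3.64. SMAD6 spans 80.6 kb on chromosome 15 (66702236 to 66782849). SMAD7 has the shortest span of the 10, 31.1 kb on chromosome 18 (48919853 to 48950965). The row before SMAD7, RP11-484L8.1, held 313 and 3 counts and matched no RefSeq name; its overlap with SMAD7 was not tested.

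**Figure D2:**
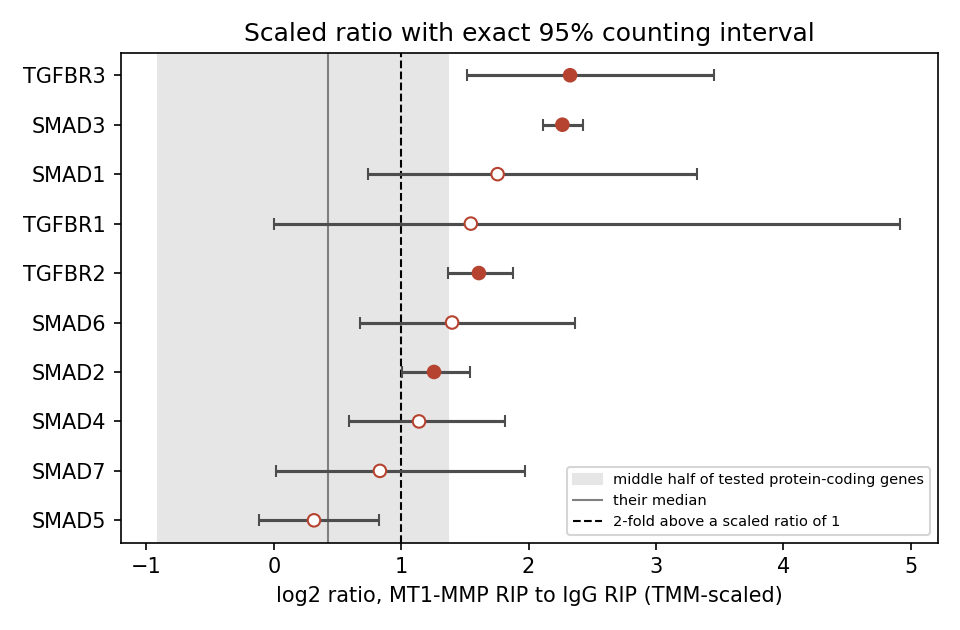
TMM-scaled log2 ratio of MT1-MMP to IgG counts (horizontal axis) with exact 95% counting intervals for the 10 genes, in order of their raw count ratio; filled circles are calls on the MT1-MMP side, and the grey band and line are the quartiles and median of tested protein-coding genes. TGFBR3 and SMAD3 lie above 2 and SMAD5 at 0.32.

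In order of the raw count ratio the genes ran TGFBR3 (187.0 MT1-MMP counts to 1 IgG count), SMAD3 (171), SMAD1 (130.0), TGFBR1 (129.5), TGFBR2 (109), SMAD6 (97.3), SMAD2 (85.3), SMAD4 (79.9), SMAD7 (66.4) and SMAD5 (44.8). Each of the 9 neighbouring pairs in this order had a ratio of ratios whose interval included 1, so no step between neighbours was beyond counting error. The interval of SMAD5, whose upper bound is a log2 ratio of 0.82, lay wholly below those of SMAD2, SMAD3, TGFBR2 and TGFBR3. Of the 8 pairs compared by role, SMAD3 with SMAD2, SMAD3 with SMAD4 and SMAD1 with SMAD5 had intervals that excluded 1. The receptor pairs did not: TGFBR3 against TGFBR2 gave 1.72 (0.902 to 3.67) and TGFBR3 against TGFBR1 gave 1.44 (0.153 to 6.83).

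**Figure D3:**
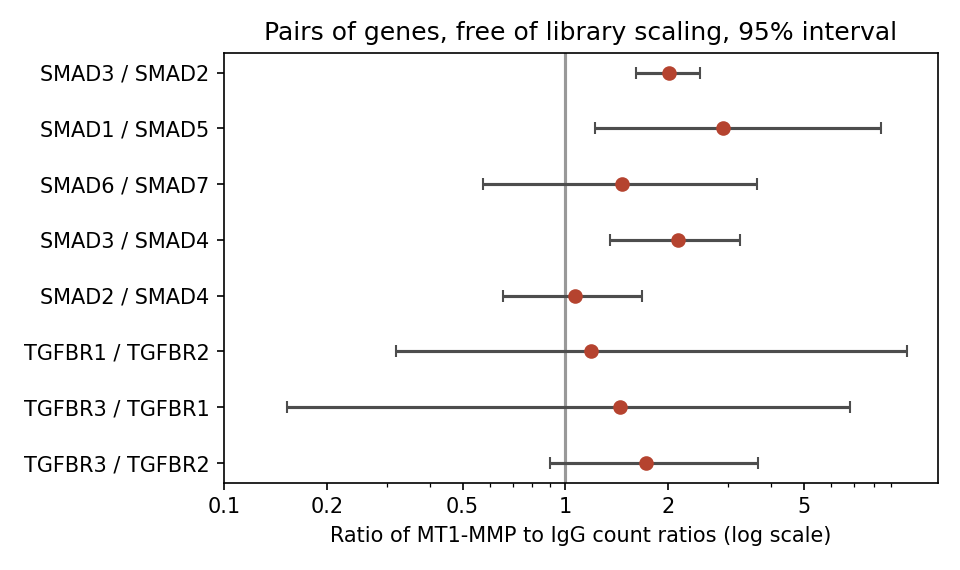
Ratio of the MT1-MMP to IgG count ratios of 2 genes (horizontal axis, log scale) with its exact 95% interval for the 8 pairs compared; the vertical line marks equal ratios. SMAD3 against SMAD2 (2.01), SMAD3 against SMAD4 (2.14) and SMAD1 against SMAD5 (2.90) lie above 1 with their whole intervals.

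The levels spanned a far wider range than the ratios. MT1-MMP counts per kb of span ran 84.0-fold from TGFBR1 (5.12) to SMAD3 (430.5), and IgG counts per kb 63.6-fold from TGFBR1 (0.0396) to SMAD3 (2.52). By MT1-MMP counts per kb, SMAD3, TGFBR2 and SMAD2 stood at percentiles 99.8, 98.8 and 96.1 of tested protein-coding genes, and TGFBR1, TGFBR3 and SMAD1 at 25.5, 35.5 and 40.2. The gene with the highest ratio, TGFBR3, thus had one of the lowest levels per kb. Across the 10 genes, as a description over points that share both libraries, Spearman's rho between MT1-MMP and IgG counts was 0.91, and between MT1-MMP counts and the ratio 0.27, or 0.07 without SMAD3.

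Gene span, which the choice of genes did not use, went with the ratio. Over tested protein-coding genes sorted by span into 10 classes of equal size, the median log2 ratio ranged from -2.36 in the class with the shortest spans (up to 6.68 kb) to 1.84 in that with the longest (from 194 kb). None of the 10 genes fell in the 4 classes with the shortest spans. Among the 10, span and ratio had a Spearman's rho of 0.77. Set beside the median of its own class, each of the 3 receptors was higher: TGFBR1 at 1.55 against 0.42, TGFBR2 at 1.61 against 1.08 and TGFBR3 at 2.33 against 1.84. SMAD3, at 2.27, lay above the upper quartile of 1.85 in its class, while SMAD2, at 1.26 and in the same class, lay below its median of 1.36. In all, 8 of 10 genes were above the median of their class, SMAD2 and SMAD5 being the exceptions, and 4 were above its upper quartile. TGFBR3 passed that quartile narrowly, at 2.33 against 2.31. Only the intervals of TGFBR2 and SMAD3 lay wholly above the median of their class. Those of the other genes, TGFBR1 and TGFBR3 included, contained it, so their side is within counting error. With the counts of MTCO2P2 taken off, SMAD2 (1.56) was above the median of its class too. Its interval of 1.28 to 1.88 still contained that median, for which no overlapping counts were taken off. In the class that holds SMAD2 and SMAD3, 33.1% of genes were called on the MT1-MMP side, in that of TGFBR3 53.1% and in that of TGFBR2 18.6%, against 13.0% over all spans. The part of span in the ratios of the 10 genes was not tested further.

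**Figure D4:**
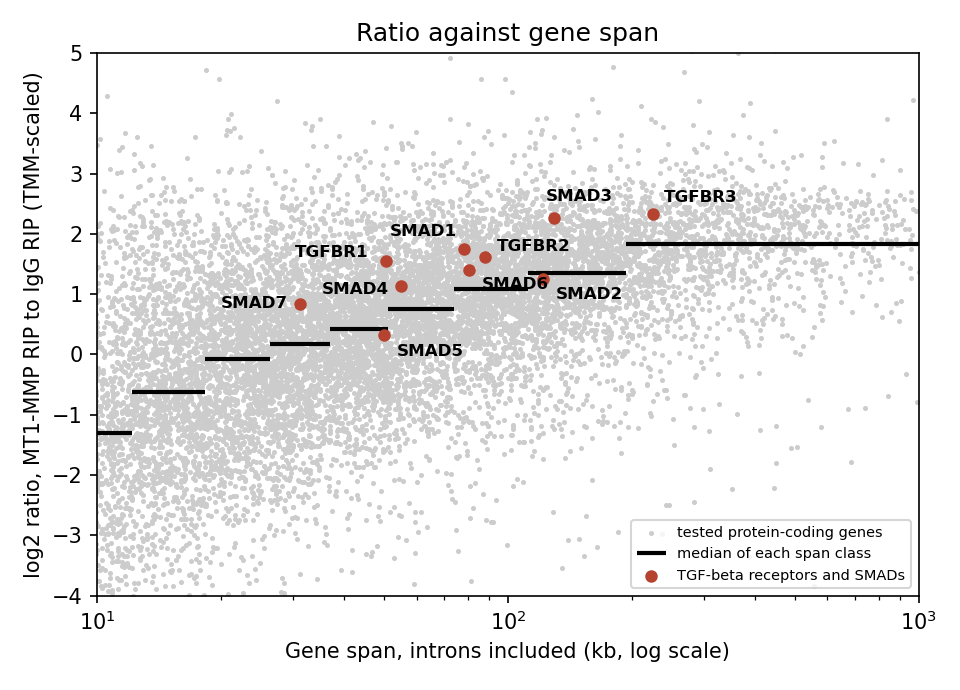
TMM-scaled log2 ratio of MT1-MMP to IgG counts (vertical axis) against gene span with introns (horizontal axis, log scale, shown from 10 to 1000 kb); grey points are tested protein-coding genes, black bars the median of each class by span, and red points the 10 genes. The medians climb with span, and 8 of the 10 genes lie above the bar of their class. Counting intervals are not drawn, and only those of TGFBR2 and SMAD3 lie wholly above the bar. SMAD2, drawn here at 1.26, would lie above its bar at 1.56 with the counts of MTCO2P2 taken off, with an interval that contains the bar.

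The rest of the pathway was read from a list of 134 genes in 9 roles, of which 113 passed the minimum of 20 counts. Of these 113, 18 were called on the MT1-MMP side and 23 on the IgG side, against 13.0% and 13.2% of all tested protein-coding genes. The same percentages are the background of each role below, and 1 call among 7 to 10 genes, or 2 among 15, is near it. The median log2 ratio of the list was 0.53, against 0.42 for all tested protein-coding genes, and 46 of 113 lay above the median of their span class. This held for 8 of 15 ligands, 2 of 10 genes of latency and activation, 4 of 7 antagonists and 4 of 9 adaptors and anchors. Of the genes so counted in these roles, only TGFB2, TGFB3 and BMPER had intervals wholly above that median. The side of the others is within counting error. With TMM over rows of at least 20 counts the calls on the MT1-MMP and IgG sides were 11 and 27. That scaling turned the counts over all tested protein-coding genes from 1858 and 1890 to 1038 and 2322, each of 14328.

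Of 13 other receptors of the family tested, 5 were called on the MT1-MMP side and 0 on the IgG side, against 13.0% and 13.2% of tested protein-coding genes. Their median log2 ratio was 1.26 and their median span 86.3 kb. The 5 calls lay in the span classes of TGFBR2, of SMAD2 and SMAD3, and of TGFBR3. In these, 18.6%, 33.1% and 53.1% of genes were so called. Above the median of their span class were 10 of 13. Only the intervals of ACVR1, ACVR2A, BMPR1A and RGMB lay wholly above it, so the side of the others is within counting error. The activin type II receptor ACVR2A led with 1493 and 5 counts, a log2 ratio of 2.93 (1.85 to 4.70), but ORC4, which overlaps it, held 1563 and 17 counts, and the reads cannot be assigned. NRP1, a co-receptor for TGF-beta and other ligands, had the most counts, 20359 and 210 (1.44, 1.25 to 1.65). The other 3 calls, named after their values were seen, were the type I receptors ACVR1 (2.25), BMPR1A (2.18) and BMPR1B (1.98). SMAD9, the remaining SMAD of the BMP branch, had 124 and 1 counts and no call. Its 124 counts were too few for a call on the MT1-MMP side at any IgG count.

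Ligands were split. TGFB2 had 8585 MT1-MMP counts and 50 IgG counts, a log2 ratio of 2.26 (1.87 to 2.70), the single call of 15 tested ligands towards the MT1-MMP library. Such a call needs at least 264 MT1-MMP counts, which only TGFB1, TGFB2, TGFB3 and INHBA reached among them. The calls towards the IgG library were BMP4 (86 and 19 counts, -3.00, with an interval of -3.70 to -2.17) and, named after its value was seen, TGFB1 (1534 and 119 counts, -1.47). On this scale the intervals of the TGF-beta ligands TGFB2 and TGFB1 lay on opposite sides of a scaled ratio of 1. By total counts both were called on the MT1-MMP side. TGFB1 spans 23.6 kb and TGFB2 99.3 kb. Of the tested ligand rows, 3 rested on 0 IgG counts. Among 10 tested genes of ligand latency and activation, LTBP1, a binding protein of latent TGF-beta, had the most counts, 3774 and 43 (1.29, 0.87 to 1.77), without a call. THBS1, an activator of latent TGF-beta, was called on the IgG side (1883 and 549 counts, -3.37), though FSIP1 overlaps it and held 1813 and 391 counts. Of 7 tested extracellular antagonists, BMPER, a BMP-binding protein with a span of 251.5 kb, was called on the MT1-MMP side (2135 and 8 counts, 2.82, 1.93 to 4.12) and NOG, the BMP antagonist noggin with a span of 1.91 kb, on the IgG side (45 and 8, -2.73). Only BMPER and TWSG1 among these antagonists had enough MT1-MMP counts for a call on the MT1-MMP side.

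Genes that control the receptors and SMADs after synthesis had calls on both sides. Of 16 tested ubiquitin ligases, deubiquitinases and phosphatases, 4 were called on the MT1-MMP side and 3 on the IgG side (median 1.08, median span 117.5 kb), but 5 of 16 were above the median of their span class. SMURF2, a ubiquitin ligase that SMAD7 brings to the receptors, had 29398 and 243 counts (1.76, 1.59 to 1.96). STUB1, another ligase, had 11 and 15 counts (-5.58), nearly the counts of the overlapping JMJD8. Among 9 adaptors and anchors, ZFYVE9, which brings SMAD2 and SMAD3 to the receptor, was called on the MT1-MMP side (2398 and 15 counts, 2.12, 1.45 to 3.01), and HGS, an endosomal sorting protein, on the IgG side (390 and 77, -2.82). FKBP1A, which binds the type I receptor, had the most counts of this role, 5635 and 163 (-0.04), of which the overlapping SDCBP2-AS1 could hold nearly all.

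Nuclear partners of the SMADs had 3 of 15 tested genes called on the MT1-MMP side and 1 on the IgG side, against a background of 13.0% and 13.2%. Their median was 0.80, and 6 of 15 lay above the median of their span class. All 3 calls on the MT1-MMP side were in the class with the longest spans, where 53.1% of genes were so called. RUNX1, a transcription factor that binds SMADs, had 33752 and 221 counts (2.10, 1.91 to 2.30). RUNX2 had 16034 and 84 (2.42, 2.12 to 2.75), but the overlapping SUPT3H held 23657 and 105. E2F4, a cell cycle transcription factor that acts with SMAD3, had 44 and 18 (-3.88). In the branch that does not use SMADs, 2 of 10 were called on the MT1-MMP side and 1 on the IgG side (median 0.78). Above the median of their span class were 4 of these 10. MAPK8, the kinase JNK1, led at 9710 and 64 counts (2.08), with more counts in the overlapping ARHGAP22, and SHC1, an adaptor, was on the IgG side at 404 and 58 (-2.36).

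On this scale, most known target genes of TGF-beta stood on the IgG side. Of 18 tested, 13 were called on the IgG side and 1 on the MT1-MMP side, against 13.2% and 13.0% of tested protein-coding genes, and their median log2 ratio was -2.44. Only FN1, PMEPA1, ACTA2, VIM and MYC among them reached the 264 MT1-MMP counts that a call on the MT1-MMP side needs. A call on the IgG side can rest on far fewer, as with SNAI2 (18 and 6 counts). The 2 sides were thus not equally open to a call. CCN2, a matricellular protein, had 35 MT1-MMP counts and 36 IgG counts (-5.19, with an interval of -5.91 to -4.48). PMEPA1, a membrane protein that restrains SMAD signalling, was the call on the MT1-MMP side, with 6283 and 54 counts (1.70, 1.33 to 2.13) and a span of 63.1 kb. The other 4 targets, named after their values were seen, were called on neither side: ACTA2 (1.48), CDH2 (0.58), TAGLN (-0.14) and TGFBI (-1.67). CDH2 rested on 79 and 1 counts, with an interval of -1.37 to 6.47. The interval of TGFBI, -2.33 to -0.85, lay wholly below a scaled ratio of 1. NKILA overlaps PMEPA1 but held 18 and 0 counts, 0.29% and 0% of those of PMEPA1. FAS and ACTA2-AS1 overlap ACTA2, and PCSK7 overlaps TAGLN, so reads shared there cannot be assigned. The targets were short, with a median span of 8.76 kb and 12 of 18 in the 2 classes with the shortest spans. In those 2 classes 50.5% and 32.2% of tested protein-coding genes were called on the IgG side. Of the 18 targets, 3 lay above the median of their own class. By total counts, 7 of the 18 were called on the MT1-MMP side and 0 on the IgG side. Of tested protein-coding genes, 86.1% and 0.698% were. The side of the calls thus depends on the scale. On both scales the median of the targets was below that of tested protein-coding genes, by total counts 1.43 against 4.29. The medians of the TGF-beta receptors (1.61) and of the SMADs (1.26) were above that of the targets, but single genes overlapped: PMEPA1 (1.70) lay above TGFBR1, TGFBR2 and each SMAD but SMAD1 and SMAD3, and ACTA2 (1.48) above SMAD2, SMAD4, SMAD5, SMAD6 and SMAD7. The part of span in this order was not tested.

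**Figure D5:**
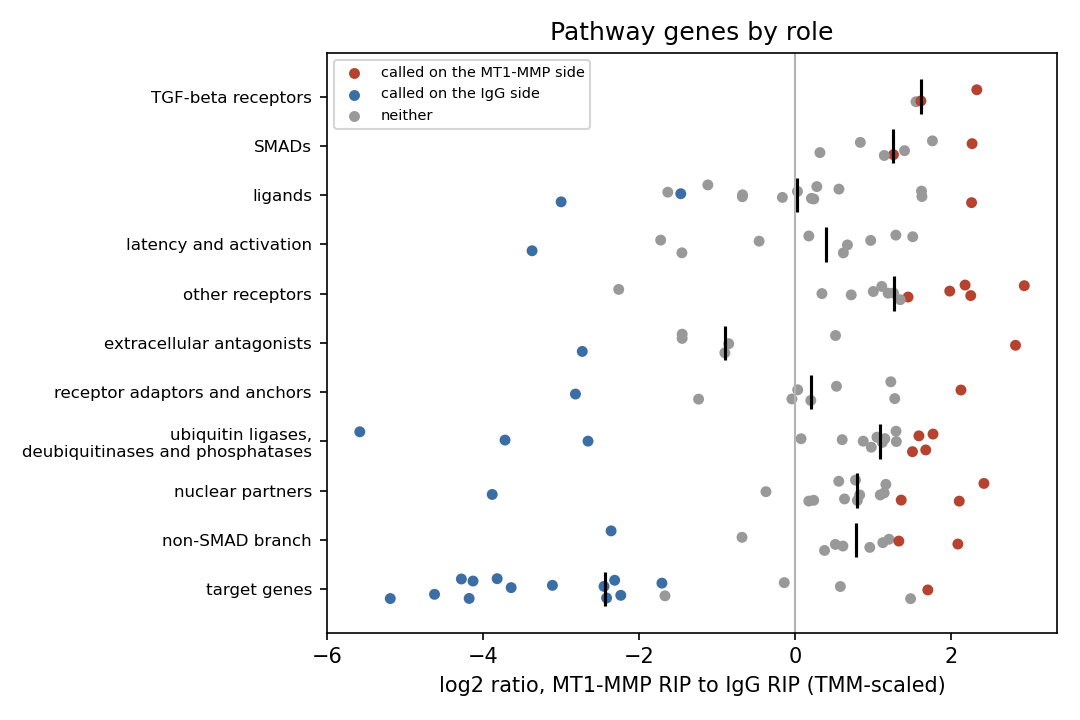
TMM-scaled log2 ratio (horizontal axis) of each tested gene of the pathway, by role, with a black bar at the median of each role and vertical scatter only to separate points. The TGF-beta receptors (median 1.61) and SMADs (median 1.26) lie to the right. On this scale 13 of 18 target genes are called on the IgG side (13.2% of tested protein-coding genes), and by total counts 0 (0.698%).

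A sequence feature was looked for in the RefSeq promoter windows of GRCh38.p14, which run from 250 bases before to 50 after each annotated start; all 10 genes had at least 1 window, and 29 windows in all. The palindromic SMAD-binding element, GTCTAGAC on both strands, is the classical site bound by SMAD3 and SMAD4. It was found in 1 of the 29 windows, that of the inhibitor SMAD6, and in 0.202% of all 35116 windows. The stretch is shown because it is the sole match among the 10 genes. It lies on chromosome 15 from 66702198 to 66702235 on the plus strand, the element beginning 12 bases before the start, and the capitals mark the element.
SMAD6: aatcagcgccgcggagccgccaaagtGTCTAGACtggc
A match is a description of the letters in this window. The RIP counts do not measure binding there.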

How the data were processed

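The deposited table holds raw read counts, whole numbers per gene row, in 1 column for each of the 2 libraries, tied to them by the column names in the labels. The submitters' processing notes list cutadapt, HISAT2, SAMtools and the build hg38. Not given in the sources used here are versions, counting tool, annotation and strand setting, so reads of overlapping and antisense genes, and intron reads, cannot be told apart. Repeats of an earlier row in both name and counts (959 rows) were dropped. RefSeq annotation of GRCh38.p14, matched by name for 39327 rows, gave class, position and span. Count ratios were scaled by edgeR 4.0.16 TMM factors over all rows and given exact (Clopper-Pearson) 95% intervals conditional on the summed count with scipy 1.17.1; log2 ratios had 0.5 counts added to each library. Ratios of ratios are conditional odds ratios with exact intervals. With 1 library per group no p-value was computed. Reads are not independent molecules, so intervals cover counting error only. The call rule was also run on counts simulated with counting error alone and a known scale. That run cannot check the scaling or the variation between replicates. Alternatives were other scalings (totals, DESeq2 1.42.0 size factors, upper quartile, TMM on other row sets, totals without ribosomal DNA), other fold limits, count minimums and added counts, and overlapping rows left out or subtracted. The genes and lists were chosen with earlier results of these data known. Genes of the list were named by a rule: in each role the called gene in each direction whose nearer bound lay farthest from 1, and the gene with the most counts.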

Additional observations from a re-analysis of the deposited data

How the results depend on the processing

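Scale and the depth of the IgG library both limit these results: the 10 genes had 679 IgG counts in all, and 6 intervals reached under the 2-fold limit. The median log2 ratio of the 10 genes (1.47) was 5.34 by total counts, 1.28 with TMM over protein-coding rows, 1.74 by totals without ribosomal DNA, 1.10 with TMM over rows of at least 20 counts (chosen after seeing the data), and 1.24 and 0.998 with 2 and 5 counts added. Of the 10 genes, 4 called higher in the MT1-MMP library became 10 by total counts, 2 with TMM over rows of at least 20 counts, 7 at a 1.5-fold limit and 8 at a limit of 1. For the pathway list, 18 became 88, 11, 28 and 47 under the same settings, and 8 of 59 genes without overlap; calls towards the IgG library (23) became 0 by total counts and 15 without overlap. For protein-coding genes, 1858 became 12333, 1038, 2926 and 4798, and 639 without overlap, and 1890 towards the IgG library became 100 by total counts, 3240 at a limit of 1, 1148 at a minimum of 100 counts and 1103 without overlap. Fewer genes were tested in the last 2 settings. Of 90 recomputed ratios of single genes, 1 was below 0, that of SMAD5. All 6 ratios of ratios recomputed without overlapping rows kept their side of 1. No paired analysis was possible because each group has 1 library.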
